A study of Mus musculus with 7 samples.

Results

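The genes described here are the chemokines and chemokine receptors of the mouse, small secreted proteins that steer migrating cells and the surface receptors that read them. They were chosen as a list of 40 named genes, 30 ligands and 10 receptors, among the 55423 features of a count table from bulk skin tumours. The tumours were cutaneous squamous cell carcinomas (cSCC) of 2 genotypes. In Ivl:BRAFV600E mice a tamoxifen-inducible Cre recombinase under the involucrin (Ivl) promoter switched on the oncogene BRAFV600E in the IVL+ cells of the skin. Ivl:BRAFV600E-SOX2LSL mice carried the same alleles and, in addition, a Rosa26 allele that expresses the transcription factor SOX2 together with eGFP after recombination. Both groups received topical tamoxifen at 7 to 10 weeks of age and were followed to the clinical endpoint. No skin without the oncogene belongs to the comparison. The 3 Ivl:BRAFV600E tumours came from 2 females, both heterozygous for a Rosa26 tdRFP reporter allele, and 1 male that was wild type for it. The 3 Ivl:BRAFV600E-SOX2LSL tumours, called SOX2LSL tumours below, came from 2 males and 1 female. Every SOX2LSL tumour was collected sooner after induction than every Ivl:BRAFV600E tumour, so genotype and time since induction cannot be told apart. In each group tumours are numbered 1 to 3. The comparison asks which of the 40 genes differ when SOX2 is added to the oncogene in the same cell population.

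Between 23565432 and 31152826 reads were counted on genes per tumour. A level of 3 reads was taken as the floor of detection. It corresponded to 0.0839 to 0.143 CPM (reads per 1 M after TMM scaling of the libraries), and covers counting error only. Sox2 was at 0.238 to 0.716 CPM in the Ivl:BRAFV600E tumours and at 155 to 182 CPM in the SOX2LSL tumours, and EGFP had 0 reads in each of the former and 110 to 139 CPM in the latter, as the labels state. The squamous identity of the tissue was visible in every tumour, with at least 2371 CPM of Krt5 and 6527 CPM of Krt14. SOX2LSL tumour 1 stood apart from the other 5 by its low Krt10 (424 CPM, against 3993 to 36337 CPM) and its TMM factor of 1.25. Values without it are given beside several of the members it moves. In bulk tissue, fewer cells of a type and less RNA per cell cannot be told apart.

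Chemokines are grouped by the spacing of their first cysteines into the CC, CXC, CX3C and XC families, and most of their receptors signal through inhibitory G proteins to direct a cell up a gradient. CC ligands mainly recruit monocytes, macrophages, eosinophils and lymphocytes. CXC ligands that carry an ELR motif recruit neutrophils, while others act on T cells, B cells and stromal cells. In skin, keratinocytes, fibroblasts, endothelial cells and resident leukocytes all make chemokines, some of them constantly and others after a cytokine such as TNF or IL-1. Many of the ligand genes lie side by side in the genome.

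Promoters were available for 28 of the 40 genes in the RefSeq table used here, as 300 bases from 250 before to 50 after the transcription start (build GRCm38.p6). No entry was held for Ccl2, Ccl4, Ccl5, Ccl7, Ccl11, Ccl24, Cxcl5, Cxcl11, Cxcl16, Cxcl17, Ccr7 and Cxcr5. The promoters of Cxcl1, Cxcl2 and Cxcl3 are shown because these 3 genes of chromosome 5 encode neutrophil attractants and because Cxcl2 and Cxcl3 reached their highest level in the same tumour, as described below. Capitals mark each match to the letters GGGNNNTTCC, a general form of the site read by NF-κB, on either strand.
Cxcl1 (chr5:90890995-90891294, plus strand): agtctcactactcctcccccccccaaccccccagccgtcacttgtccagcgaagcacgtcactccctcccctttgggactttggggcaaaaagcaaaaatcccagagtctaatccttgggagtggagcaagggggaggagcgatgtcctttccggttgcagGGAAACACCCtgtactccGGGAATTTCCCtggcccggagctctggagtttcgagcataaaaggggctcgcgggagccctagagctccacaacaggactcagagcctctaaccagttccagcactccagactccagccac
Cxcl2 (chr5:90903649-90903948, plus strand): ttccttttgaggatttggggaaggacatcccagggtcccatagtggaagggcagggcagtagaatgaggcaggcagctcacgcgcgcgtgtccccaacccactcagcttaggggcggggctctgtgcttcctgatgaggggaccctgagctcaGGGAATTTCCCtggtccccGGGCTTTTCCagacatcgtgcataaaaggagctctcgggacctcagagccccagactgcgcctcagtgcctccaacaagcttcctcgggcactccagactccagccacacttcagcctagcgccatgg
Cxcl3 (chr5:90785851-90786150, plus strand): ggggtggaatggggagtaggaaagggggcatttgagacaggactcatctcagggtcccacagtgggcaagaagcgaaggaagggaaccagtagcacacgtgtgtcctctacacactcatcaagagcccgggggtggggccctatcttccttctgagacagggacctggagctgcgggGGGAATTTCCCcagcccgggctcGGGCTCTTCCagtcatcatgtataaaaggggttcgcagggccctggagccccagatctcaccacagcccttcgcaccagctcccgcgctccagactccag
Each of the 3 promoters held 3 matches, a pair of which overlapped on opposite strands. The letters occurred in promoters of 7 of the 28 members (25%), namely Ccl9, Ccl20, Ccr6, Cxcl1, Cxcl2, Cxcl3 and Cxcl10, and in 5.56% of the 32851 promoters of this length in the table. Members were counted per gene, with a match in any promoter of the gene, and all promoters singly. Ccr6 had more than 1 promoter. The letters CATTGT, a core that SOX factors can bind, were found in 1 of the 28 (3.57%), that of Ccr1, and in 12.6% of all promoters. The other 3 motifs searched were TATAAA (32.1% of members, 13.6% of all promoters), TGANTCA, read by AP-1 (14.3% and 7.81%), and TTCNNNGAA, read by STAT factors (10.7% and 8.3%). These matches describe the sequence and are not evidence of binding.

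Ccl6 and Ccl9 are neighbours on chromosome 11 that encode closely related attractants of myeloid cells, and both were highest in the same SOX2LSL tumour. In their promoters, shown next, capitals mark stretches of at least 8 identical bases when the sequences are laid side by side without gaps at the offset with the most identities.
Ccl6 (chr11:83593038-83593337, minus strand): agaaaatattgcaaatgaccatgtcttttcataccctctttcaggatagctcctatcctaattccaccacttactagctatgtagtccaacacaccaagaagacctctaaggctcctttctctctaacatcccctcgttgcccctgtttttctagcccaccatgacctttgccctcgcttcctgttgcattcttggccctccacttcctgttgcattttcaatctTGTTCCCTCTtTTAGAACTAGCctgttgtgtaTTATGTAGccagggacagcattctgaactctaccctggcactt
Ccl9 (chr11:83578587-83578886, minus strand): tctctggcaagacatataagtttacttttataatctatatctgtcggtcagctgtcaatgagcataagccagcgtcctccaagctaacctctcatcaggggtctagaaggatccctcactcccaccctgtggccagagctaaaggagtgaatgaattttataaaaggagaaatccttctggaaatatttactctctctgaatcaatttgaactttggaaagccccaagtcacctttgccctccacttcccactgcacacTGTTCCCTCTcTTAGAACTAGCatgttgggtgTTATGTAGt
At that offset 97 of 266 bases were identical (36.5%), against 87 at the next best offset, and the marked stretches, which lie near the transcription start, were 3 in number with a longest run of 11 bases.

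Of the 40 genes, 39 reached the filter of at least 5 reads in at least 1 tumour and entered the quasi-likelihood test of edgeR, with adjustment over all 24433 genes tested. Cxcl11 did not, with at most 2 reads in a tumour. Ccl12, Ccl17, Ccl19 and Xcl1 passed the filter only through the SOX2LSL group. At an adjusted p below 0.05, the threshold for calling a gene, 2 of the 39 members were called (5.13%), Ccl11 and Ackr3, and both were higher in SOX2LSL tumours. Among all genes tested 3.9% were called, 2.39% as higher and 1.51% as lower, so that the share of members is close to the background. No member was called lower. At an unadjusted p below 0.05 there were 12 members, all higher in SOX2LSL tumours, where 25.7% of all genes tested pass. The same number, 12 of 39 (30.8%), had values that were higher in every SOX2LSL tumour than in every Ivl:BRAFV600E tumour, and none was lower in every one of them. Across all genes tested, 18.2% lay apart upward and 16% downward. The median log2 fold change of the members was 0.91, with 31 of 39 above 0 (79.5%), against a median of 0.04 and 52.8% above 0 over all genes tested. All 4 members that passed the filter only through the SOX2LSL group are among the 31 above 0, a sign that the filter favours. Of these, Ccl12 is also among the 12 that lay apart and the 12 at an unadjusted p below 0.05. Without these 4 members the median was 0.72. With Xcl1, which had 0 reads in the Ivl:BRAFV600E tumours, set against the floor of 3 reads per tumour there, it was 0.75.

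The choice of test changed the count. DESeq2's Wald test gave an adjusted p to 33 members and called 10 of them, all higher in SOX2LSL tumours (Ccl6, Ccl9, Ccl11, Ccl12, Cxcl5, Cxcl13, Ccr2, Cxcr2, Cxcr3 and Ackr3), at a background of 18.2% of its 20046 genes. Of the 10, Ccl12 passed the filter only through the SOX2LSL group. With sex as a covariate, edgeR called 0 members and 0.933% of all genes. Leaving out a tumour left 0 or 1 member called, while the share called over all genes ran from 0.0918% (without Ivl:BRAFV600E tumour 1) to 6.69% (without SOX2LSL tumour 1, where 1 of 37 members tested was called).

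**Figure D1:**
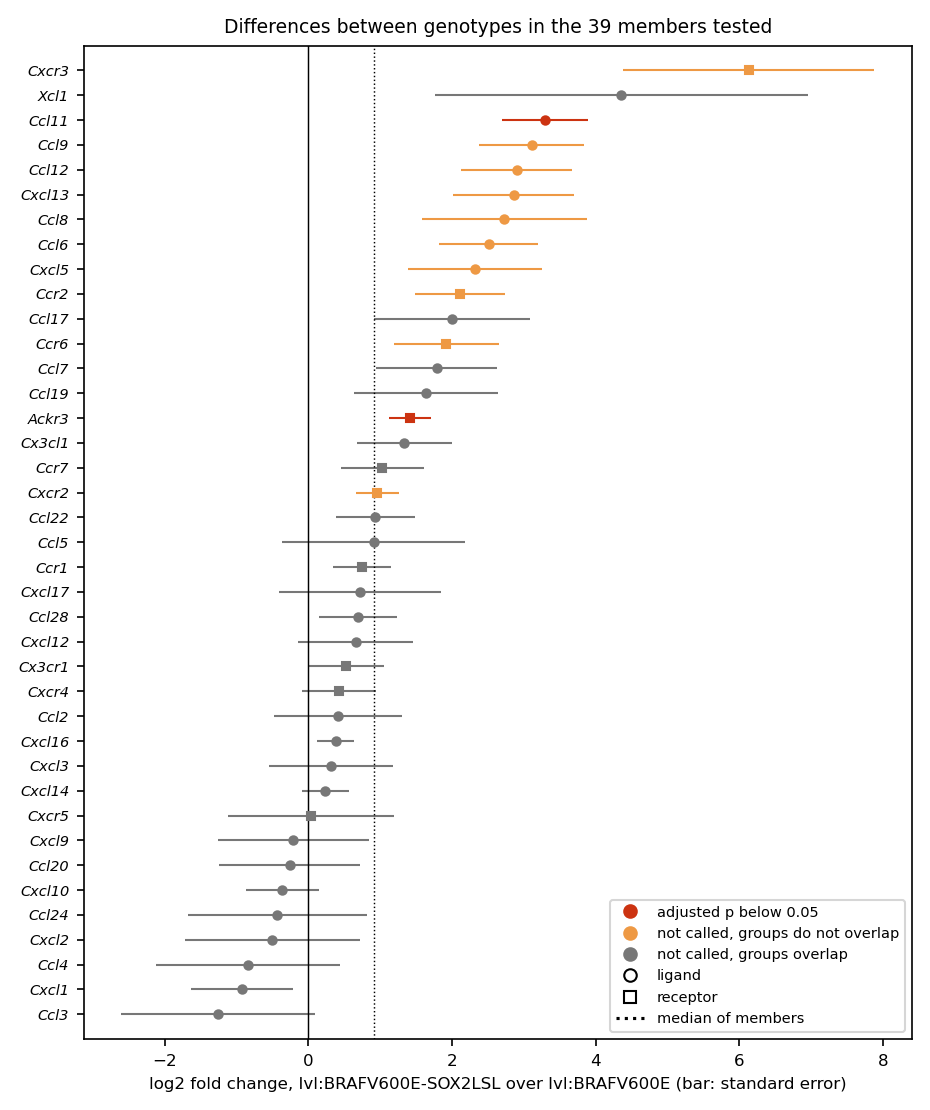
Log2 fold change of each of the 39 members tested (SOX2LSL over Ivl:BRAFV600E tumours, edgeR; bars are standard errors), with circles for ligands and squares for receptors. Ccl11 and Ackr3, in red, are the 2 called members, orange marks the other 10 whose groups do not overlap, and the dotted line is the median of 0.91. The point of Xcl1 is a fitted value against 0 reads in the Ivl:BRAFV600E tumours.

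Ccl11 (ENSMUSG00000020676, chromosome 11 of GRCm38, 82057823 to 82062955, plus strand), which encodes eotaxin, an attractant of eosinophils that acts on CCR3, had the larger of the called differences. It was at 1.64, 0.231 and 1.14 CPM in Ivl:BRAFV600E tumours 1 to 3 and at 7.61, 9.81 and 12.7 CPM in SOX2LSL tumours 1 to 3. All 3 SOX2LSL tumours were high, and the groups did not overlap. Ccl11 rose, with means of 1 ± 0.713 CPM in the Ivl:BRAFV600E tumours and 10.1 ± 2.58 CPM in the SOX2LSL tumours (SD, n = 3 in each group), and the log2 fold change was 3.30 ± 0.60 (SE, edgeR adjusted p = 0.0357). Leaving out 1 tumour at a time gave log2 fold changes of 2.84 to 3.87. The call held without SOX2LSL tumour 1 (adjusted p = 0.0214) and was lost without any of the other 5, with adjusted p up to 0.118.

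The receptor of eotaxin was not called by edgeR and was called lower by DESeq2. Ccr3, which is not among the 40 genes, was at 2.25, 2.08 and 1.62 CPM in the Ivl:BRAFV600E tumours and at 0.699, 0.842 and 1.16 CPM in the SOX2LSL tumours, with no overlap (log2 fold change -1.14, standard error 0.33, edgeR adjusted p = 0.0935, DESeq2 adjusted p = 0.0231). The eosinophil granule genes Epx and Prg2 had at most 0.095 CPM in any tumour, which is below the level of 3 reads, while Siglecf, a surface receptor of eosinophils, was at 0.205, 0.185 and 0.523 CPM in the Ivl:BRAFV600E tumours and at 3.27, 0.356 and 1.12 CPM in the SOX2LSL tumours (log2 fold change 2.39, edgeR adjusted p = 0.142, called by DESeq2). Without SOX2LSL tumour 1 the log2 fold change of Siglecf was 1.28 (edgeR adjusted p = 0.332). Of the 6 mast cell and eosinophil genes tested, 5 were higher in every SOX2LSL tumour, against 18.2% of all genes tested. Cpa3, a mast cell protease, was at 1.02, 0.0462 and 0.380 CPM in the Ivl:BRAFV600E tumours and at 4.84, 4.44 and 4.04 CPM in the SOX2LSL tumours (log2 fold change 3.14, edgeR adjusted p = 0.0623, and log2 fold changes of 2.63 to 4.36 when a tumour was left out). The 8 mast cell and eosinophil genes summed to 0.369 to 6 CPM in the former and 25.6 to 30.7 CPM in the latter, none of the 6 tested was called by edgeR (5 at an unadjusted p below 0.05 and 4 by DESeq2, with backgrounds of 25.7% and 18.2%), and their part in the Ccl11 result was not tested. Ccl24, the other eotaxin of the list, was at 0.102, 0 and 1.47 CPM in the Ivl:BRAFV600E tumours and at 0.227 to 0.614 CPM in the SOX2LSL tumours, so the groups overlapped.

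Ackr3 (ENSMUSG00000044337, chromosome 1, 90203980 to 90216751, plus strand) encodes an atypical receptor that binds and removes the ligand CXCL12 without signalling through G proteins. Its level was 7.64, 10.4 and 13.1 CPM in Ivl:BRAFV600E tumours 1 to 3 and 35.8, 28.7 and 18.6 CPM in SOX2LSL tumours 1 to 3. The groups did not overlap, although the highest Ivl:BRAFV600E tumour and the lowest SOX2LSL tumour lay close together. Ackr3 rose, with means of 10.4 ± 2.74 CPM in the Ivl:BRAFV600E tumours and 27.7 ± 8.62 CPM in the SOX2LSL tumours (SD, n = 3 in each group), and the log2 fold change was 1.42 ± 0.29 (SE, edgeR adjusted p = 0.0484). With DESeq2's size factors or upper-quartile scaling in place of TMM, with limma voom and with sex as a covariate it was not called, and when 1 tumour was left out it was called only without SOX2LSL tumour 3.

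The partners of Ackr3 overlapped between the genotypes and were not called. Cxcl12, a stromal ligand that retains haematopoietic cells in their niches, was at 23.7, 3.09 and 55 CPM in the Ivl:BRAFV600E tumours and at 48.2, 49.9 and 30.8 CPM in the SOX2LSL tumours (log2 fold change 0.66, standard error 0.80, edgeR adjusted p = 0.642). When 1 tumour was left out, its log2 fold change ran from 0.13 (without Ivl:BRAFV600E tumour 2) to 1.67. Ivl:BRAFV600E tumour 2 was far below the other 5. The same tumour was lowest in Dcn (3.19 CPM, against 49.6 to 145 CPM) and Lum (2.31 CPM, against 17.4 to 68.5 CPM), which fibroblasts express. Cxcr4, the signalling receptor of CXCL12 on leukocytes and many tumour cells, ranged from 3.58 to 11.8 CPM in the Ivl:BRAFV600E tumours and from 5.15 to 15.6 CPM in the SOX2LSL tumours (log2 fold change 0.43, standard error 0.51).

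**Figure D2:**
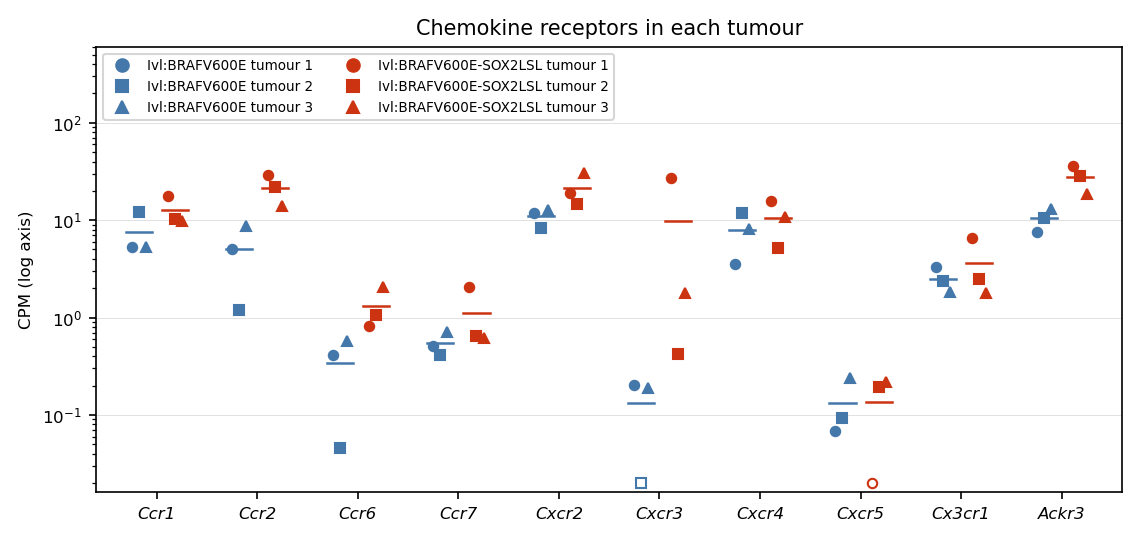
Level of the 10 receptors in each tumour in CPM on a log axis, with Ivl:BRAFV600E tumours in blue, SOX2LSL tumours in red, a symbol for each tumour and a line at the group mean. Open symbols at the bottom stand for 0 reads. Ackr3, Ccr2, Ccr6, Cxcr2 and Cxcr3 have no overlap between the groups, and Cxcr3 is carried by SOX2LSL tumour 1 at 27.2 CPM.

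The monocyte attractants Ccl2, Ccl7, Ccl12 and Ccl8 lie with Ccl11 in a cluster on chromosome 11 (82035571 to 82116799). Ccl2, Ccl7 and Ccl12 act on CCR2, the receptor through which blood monocytes enter inflamed tissue, and Ccl8 of the mouse acts on CCR8. Within this cluster edgeR called only Ccl11, and DESeq2 called Ccl11 and Ccl12, of which Ccl12 passed the filter only through the SOX2LSL group. Ccl8 was at 0.716, 0.185 and 7.46 CPM in the Ivl:BRAFV600E tumours and at 33.4, 12.2 and 9.24 CPM in the SOX2LSL tumours. The groups lay apart, but Ivl:BRAFV600E tumour 3 came close to SOX2LSL tumour 3, and the log2 fold change of 2.73 had a standard error of 1.15 (edgeR adjusted p = 0.192). It was 1.96 without SOX2LSL tumour 1 and 5.28 without Ivl:BRAFV600E tumour 3. Ccl12 had 3, 1 and 2 reads in the Ivl:BRAFV600E tumours and 43, 14 and 7 reads in the SOX2LSL tumours. The ratio of the summed levels was 8.15, with an exact 95% interval of 3.54 to 23 that covers counting error only, and edgeR did not call it (adjusted p = 0.0797). Without SOX2LSL tumour 1 its fitted log2 fold change went from 2.90 to 2.04. Ccl7 ran from 0.139 to 1.57 CPM and from 1.23 to 5.59 CPM, and Ccl2 from 0.693 to 3.68 CPM and from 0.777 to 6.21 CPM, in the Ivl:BRAFV600E and SOX2LSL tumours respectively. Both overlapped. The log2 fold change of Ccl2 was 0.41 in all 6 tumours and -1.13 without SOX2LSL tumour 1, which had the highest value.

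Ccr2 itself was at 5.11, 1.2 and 8.69 CPM in the Ivl:BRAFV600E tumours and at 29, 21.9 and 13.9 CPM in the SOX2LSL tumours. Each SOX2LSL tumour lay above each Ivl:BRAFV600E tumour, but the difference did not pass the threshold (log2 fold change 2.11, standard error 0.63, edgeR adjusted p = 0.101). Of the 12 monocyte and macrophage markers, 9 were higher in every SOX2LSL tumour, where 18.2% of all genes tested lay apart in this direction. At an unadjusted p below 0.05 there were 11, and DESeq2 called 9. edgeR called 1 (background 3.9%), Csf1r, the receptor for macrophage colony-stimulating factor (13.6, 13.5 and 23.6 CPM against 108, 50.4 and 41.4 CPM, log2 fold change 1.98, edgeR adjusted p = 0.0483). The 12 summed to 81.2 to 180 CPM in the Ivl:BRAFV600E tumours and to 218 to 753 CPM in the SOX2LSL tumours. Their part in the results for CCR2 and its ligands was not tested.

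A second cluster on chromosome 11 (83525778 to 83664683) holds Ccl5, Ccl9, Ccl6, Ccl3 and Ccl4, ligands of CCR1 and other receptors of myeloid cells and lymphocytes, and its members followed different patterns across the tumours. Ccl9 was at 0.921, 1.39 and 3.42 CPM in the Ivl:BRAFV600E tumours and at 31.4, 11.4 and 6.10 CPM in the SOX2LSL tumours (log2 fold change 3.11, standard error 0.73, edgeR adjusted p = 0.0615). Ccl6 was at 2.76, 2.45 and 6.22 CPM and at 43.8, 13.3 and 7.87 CPM (log2 fold change 2.51, standard error 0.69, edgeR adjusted p = 0.0860). In both, SOX2LSL tumour 1 was the highest and SOX2LSL tumour 3 the lowest of its group, and Ivl:BRAFV600E tumour 3 was the highest of the other group. Without SOX2LSL tumour 1 their log2 fold changes were 2.21 and 1.47.

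Ccl3 and Ccl4, the macrophage inflammatory proteins encoded next to them, showed another pattern. Ccl3 had 0.0682, 15.8 and 0.998 CPM in the Ivl:BRAFV600E tumours and 2.52, 1.75 and 2.82 CPM in the SOX2LSL tumours. Ccl4 had 0.205, 7.02 and 0.143 CPM and 1.04, 0.971 and 2.09 CPM. A single tumour, Ivl:BRAFV600E tumour 2, held the highest value of each, while the other Ivl:BRAFV600E tumours lay below all SOX2LSL tumours. The log2 fold changes were -1.25 for Ccl3 and -0.84 for Ccl4 with standard errors of 1.35 and 1.28, and without that tumour they were 2.20 (edgeR adjusted p = 0.271) and 2.92 (edgeR adjusted p = 0.1). limma voom also gave them the opposite sign. Ccl5, an attractant of T cells, stayed at 20 reads or fewer in every tumour, with a log2 fold change of 0.91 that was -0.57 without SOX2LSL tumour 1.

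Ccr1, a receptor of ligands from this cluster, was not called. It was at 5.28, 12 and 5.32 CPM in the Ivl:BRAFV600E tumours and at 17.8, 10.3 and 9.86 CPM in the SOX2LSL tumours, where the groups overlapped through Ivl:BRAFV600E tumour 2 (log2 fold change 0.75, edgeR adjusted p = 0.280).

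**Figure D3:**
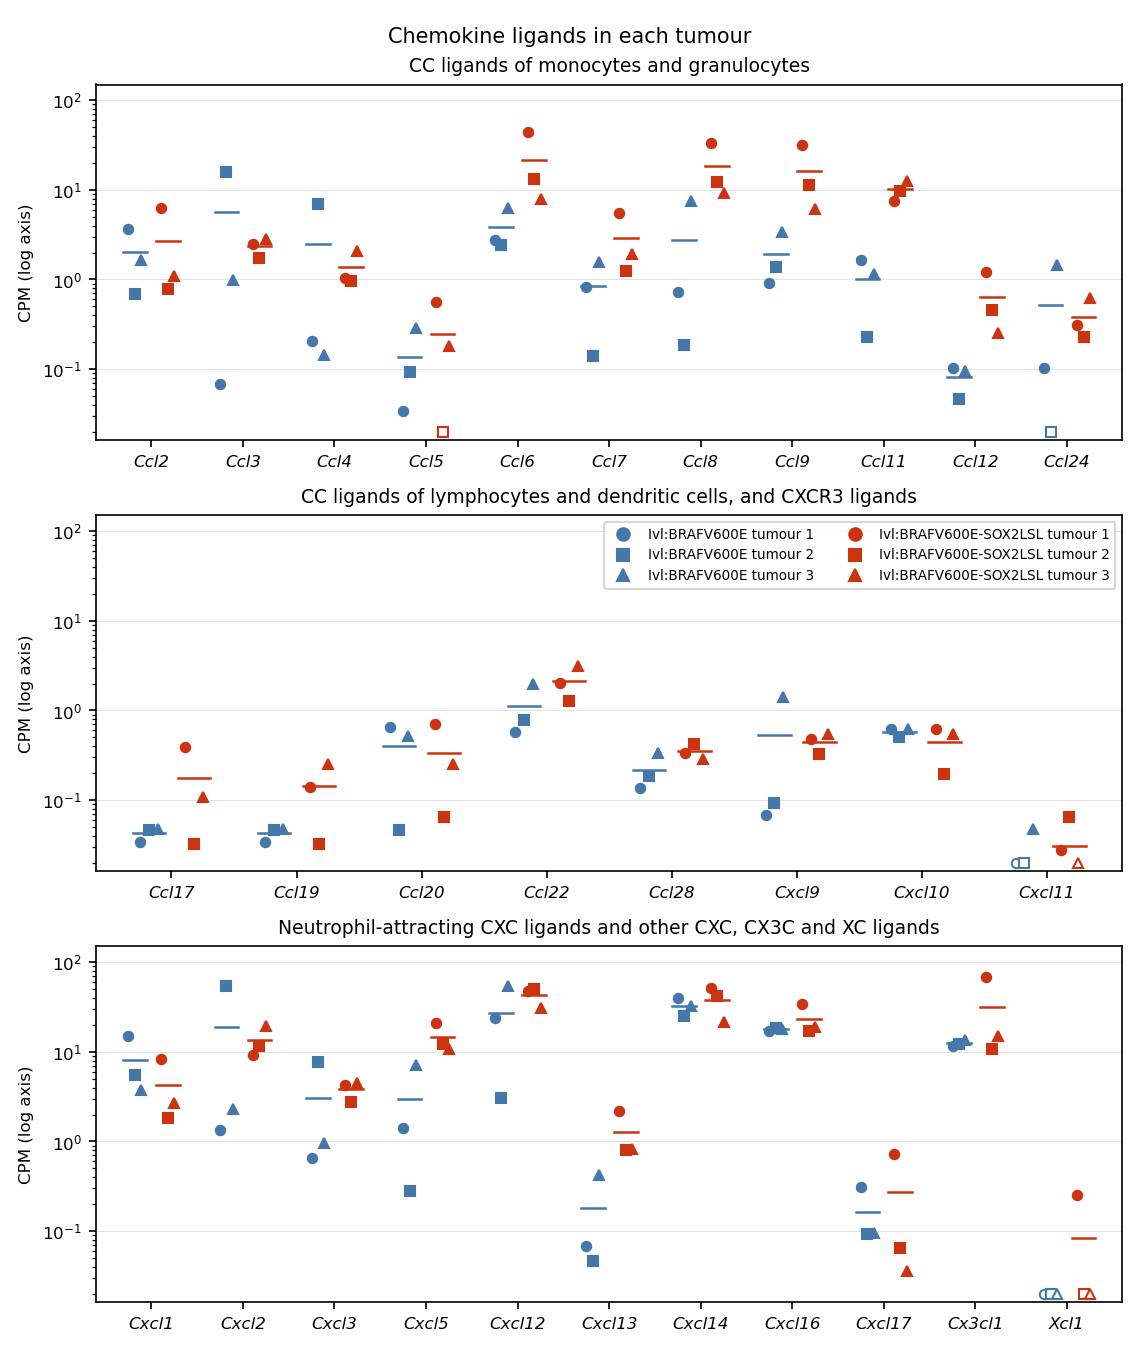
Level of the 30 ligands in each tumour in CPM on a log axis, in 3 panels by role, with Ivl:BRAFV600E tumours in blue, SOX2LSL tumours in red, a symbol for each tumour and a line at the group mean. Open symbols stand for 0 reads. The red symbols of Ccl11 lie between 7.61 and 12.7 CPM, above all blue ones, and Ccl3, Ccl4, Cxcl2 and Cxcl3 each have the blue square of tumour 2 on top.

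Of the 4 neutrophil attractants, which act on CXCR2, none was called by edgeR, while Cxcl5 had an unadjusted p below 0.05 and was called by DESeq2. Cxcl5 was at 1.40, 0.277 and 7.17 CPM in the Ivl:BRAFV600E tumours and at 20.8, 12.3 and 10.9 CPM in the SOX2LSL tumours, and was the only one of the 4 whose groups did not overlap (log2 fold change 2.32, standard error 0.93, edgeR adjusted p = 0.174). Without 1 tumour its log2 fold change ran from 1.79 (without Ivl:BRAFV600E tumour 2) to 4.09 (without Ivl:BRAFV600E tumour 3). Cxcl1, which keratinocytes make on injury, was at 15.1, 5.54 and 3.71 CPM and at 8.39, 1.81 and 2.67 CPM (log2 fold change -0.92, edgeR adjusted p = 0.442), and its log2 fold change ran from -1.86 (without SOX2LSL tumour 1) to -0.11 (without Ivl:BRAFV600E tumour 1). Cxcl2 was at 1.33, 54 and 2.33 CPM in the Ivl:BRAFV600E tumours and at 9.32, 11.7 and 19.6 CPM in the SOX2LSL tumours. Cxcl3 was at 0.648, 7.67 and 0.95 CPM and at 4.25, 2.78 and 4.44 CPM. As with Ccl3 and Ccl4, Ivl:BRAFV600E tumour 2 was the highest of the 6 and the other Ivl:BRAFV600E tumours were the lowest. Without it the log2 fold change of Cxcl2 went from -0.50 to 2.89 (edgeR adjusted p = 0.0791) and that of Cxcl3 from 0.32 to 2.26 (edgeR adjusted p = 0.0864). In Cxcl1 that tumour lay between the other Ivl:BRAFV600E tumours.

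Cxcr2, the receptor of these ligands on neutrophils, was at 11.8, 8.36 and 12.7 CPM in the Ivl:BRAFV600E tumours and at 19, 14.7 and 30.4 CPM in the SOX2LSL tumours, with no overlap (log2 fold change 0.96, standard error 0.30, edgeR adjusted p = 0.108). Cxcr1, a related receptor outside the 40 genes, had 1 read in all Ivl:BRAFV600E tumours and 35 in the SOX2LSL tumours, a ratio of 26.7 with an exact 95% interval of 4.49 to 1085 that covers counting error only. It was not called by edgeR (adjusted p = 0.0886) and was called by DESeq2 (adjusted p = 0.0269). The 10 neutrophil genes summed to 333 to 1212 CPM and 659 to 1977 CPM, which overlapped, and none of the 9 tested, Cxcr1 among them, was called by edgeR (4 at an unadjusted p below 0.05 and 3 by DESeq2, with backgrounds of 25.7% and 18.2%). Ly6g, Mpo and Cxcr1 passed the filter only through the SOX2LSL group. S100a8 and S100a9, which keratinocytes also express, made up most of these sums.

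The 4 members that were highest in Ivl:BRAFV600E tumour 2 were set beside cytokines that are known to induce chemokines. These genes were picked after their values had been seen. Tnf was at 0.989, 6 and 1.38 CPM in the Ivl:BRAFV600E tumours and at 4.14, 1.42 and 3.14 CPM in the SOX2LSL tumours. Osm, which encodes oncostatin M, was at 0.273, 3.42 and 0.333 CPM and at 0.951, 2.59 and 3.21 CPM. For Il1b the values were 3.24, 36.6 and 6.70 CPM and 33.2, 36 and 30 CPM. All 3 were highest in Ivl:BRAFV600E tumour 2 and lower in the other Ivl:BRAFV600E tumours than in the SOX2LSL tumours. Csf3, the granulocyte colony-stimulating factor gene, was at 0.511, 7.16 and 0.523 CPM and was exceeded in SOX2LSL tumour 1 at 10.9 CPM. None of these 4 genes was called, and their lowest edgeR adjusted p was 0.408 (Il1b). They were picked from a list of 20 cytokines in which no other gene was highest in Ivl:BRAFV600E tumour 2. In the same list Il6, Tslp and Csf1 were lowest in that tumour (0.277, 0.369 and 7.44 CPM).

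**Figure D4:**
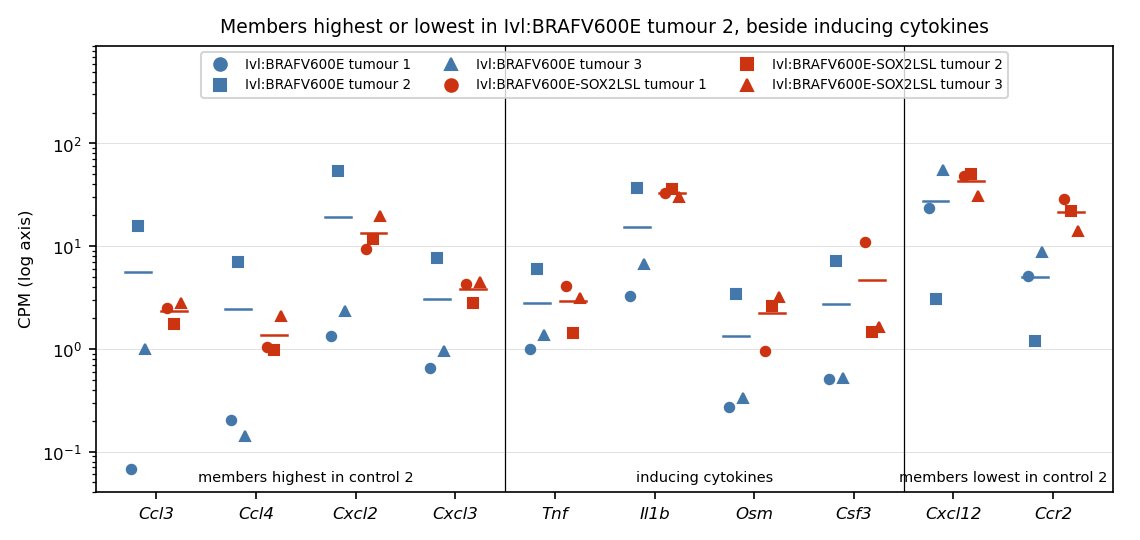
Level in CPM on a log axis of 4 members that were highest in Ivl:BRAFV600E tumour 2 (blue square), of 4 cytokine genes and of 2 members that were lowest in that tumour, with colours and symbols by tumour and a line at the group mean. The blue square lies at 15.8 CPM for Ccl3 and at 54 CPM for Cxcl2, above all other tumours, and at 3.09 CPM for Cxcl12, below them.

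The CXCR3 axis, through which interferon-induced ligands draw effector T cells, was low in all tumours apart from 1 value. Cxcl9 was at 0.0682 to 1.43 CPM in the Ivl:BRAFV600E tumours and at 0.324 to 0.542 CPM in the SOX2LSL tumours. Cxcl10 was at 0.614, 0.508 and 0.618 CPM and at 0.615, 0.194 and 0.542 CPM, and its exons overlap those of Art3 on the other strand by 133 bases, so that its counts are uncertain. Cxcr3 had 6, 0 and 4 reads in the Ivl:BRAFV600E tumours and 972, 13 and 49 reads in the SOX2LSL tumours, or 0 to 0.205 CPM against 27.2, 0.421 and 1.77 CPM. The groups did not overlap, yet SOX2LSL tumour 1 alone held most of the reads. Its log2 fold change was 6.13 in all 6 tumours (standard error 1.75, edgeR adjusted p = 0.0924) and 2.96 without that tumour. Of the 12 T and NK cell genes, 4 were highest in SOX2LSL tumour 1 and 8 were not. The 4 were Cd4 (3.64 CPM, against 0.924 to 2.89 CPM) and Nkg7, Ncr1 and Klrb1c, which had 9, 5 and 12 reads there and passed the filter only through the SOX2LSL group. Among the others, Cd3e was at 0.811 CPM in that tumour and at 0.6 to 2.92 CPM elsewhere, and Trbc2, a constant segment of the T cell receptor, was lowest there (10.6 CPM, against 13.4 to 28.1 CPM). The 12 summed to 18.1 CPM there and to 16.2 to 33.5 CPM elsewhere, with Trbc2 as the largest part, and none was called by edgeR (2 at an unadjusted p below 0.05 and 1 by DESeq2, with backgrounds of 25.7% and 18.2%). The DESeq2 call, also 1 of the 2, was Gzmb. Gzmb and Cd8b1 passed the filter only through the SOX2LSL group as well. The part of the T and NK cell genes in the Cxcr3 value was not tested. Ifng had at most 0.028 CPM in a tumour.

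Among the ligands and receptors of lymphocytes and dendritic cells, levels were low and no gene was called by edgeR. At an unadjusted p below 0.05 there were Cxcl13 and Ccr6, and DESeq2 called Cxcl13. Cxcl13, which guides B cells into follicles through CXCR5, was at 0.0682, 0.0462 and 0.428 CPM in the Ivl:BRAFV600E tumours and at 2.21, 0.810 and 0.830 CPM in the SOX2LSL tumours, with no overlap (log2 fold change 2.86, standard error 0.84, edgeR adjusted p = 0.0989). Its log2 fold change was 2.21 without SOX2LSL tumour 1 and 4.37 without Ivl:BRAFV600E tumour 3. Cxcr5 had 6 reads or fewer in every tumour, and its exons overlap those of Bcl9l. Ccr6, the receptor of Ccl20 on Langerhans cell precursors and some T cells, was at 0.409, 0.0462 and 0.570 CPM and at 0.811, 1.07 and 2.06 CPM, again without overlap (log2 fold change 1.92, standard error 0.73, edgeR adjusted p = 0.160). Its ligand Ccl20 overlapped, with 0.0462 to 0.648 CPM and 0.0648 to 0.699 CPM, and its log2 fold change of -0.26 was -1.38 without SOX2LSL tumour 1.

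Ccl22, a ligand of CCR4 made by dendritic cells and the member of this role with the highest level per length, was at 0.580, 0.785 and 2 CPM in the Ivl:BRAFV600E tumours and at 2.01, 1.26 and 3.11 CPM in the SOX2LSL tumours (log2 fold change 0.93, edgeR adjusted p = 0.329). Its partner Ccl17 had 1 read in each Ivl:BRAFV600E tumour and 14, 1 and 3 reads in the SOX2LSL tumours, a ratio of 4.58 with an exact 95% interval of 1.34 to 24.3 that covers counting error only. Most of these reads came from SOX2LSL tumour 1, and the gene was not called (edgeR adjusted p = 0.291). Ccl19, a ligand of CCR7, had 1 read in each Ivl:BRAFV600E tumour and 5, 1 and 7 reads in the SOX2LSL tumours, a ratio of 3.31 with a counting interval of 0.909 to 18.1 (edgeR adjusted p = 0.340). Ccr7, which brings dendritic cells to lymph nodes, was at 0.416 to 0.713 CPM and at 2.07, 0.648 and 0.614 CPM, and Ccl28, a ligand made by epithelia, was at 0.136 to 0.333 CPM and at 0.289 to 0.421 CPM. Both overlapped between the groups.

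The remaining ligands included those with the most even levels. Cxcl14, which normal epidermis makes without a stimulus, was at 40.2, 25.1 and 32.2 CPM in the Ivl:BRAFV600E tumours and at 51.2, 42.5 and 21.5 CPM in the SOX2LSL tumours (log2 fold change 0.24, standard error 0.33, edgeR adjusted p = 0.673). Cxcl16, a membrane-bound ligand of CXCR6, was at 17, 18.6 and 18.2 CPM and at 33.8, 17.3 and 19.1 CPM, and its exons overlap those of Zmynd15. Cx3cl1, the other membrane-bound ligand, was at 11.6, 12.4 and 13.4 CPM and at 69.2, 10.7 and 15.2 CPM. For both ligands SOX2LSL tumour 1 was the only one above the range of the rest, and without it the log2 fold change of Cx3cl1 went from 1.34 (edgeR adjusted p = 0.249) to 0.05. Cx3cr1, its receptor on monocytes and tissue macrophages, was at 1.81 to 3.34 CPM and at 6.63, 2.46 and 1.77 CPM. Cxcl17 had 26 reads or fewer in every tumour, and its log2 fold change was 0.72 in all 6 tumours and -1.66 without SOX2LSL tumour 1. Xcl1, which attracts cross-presenting dendritic cells, had 9 reads in SOX2LSL tumour 1 and 0 in the other 5. Its SOX2LSL mean of 0.0839 CPM lay below the level of 3 reads in the Ivl:BRAFV600E tumours, so no fold is given.

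Per kilobase of exon, the members with the highest mean levels in the Ivl:BRAFV600E tumours were Cxcl14 (17.8 ± 4.13 CPM per kb, SD, n = 3), Cxcl2 (9.30 ± 14.6), Ccl3 (7.36 ± 11.6) and Cxcl16 (5.94 ± 0.268). Cxcl2 and Ccl3 owed their place to tumour 2 and had medians of 1.13 and 1.30 CPM per kb, so neighbours in this order overlapped, while Cxcl14 (13.7 to 22 CPM per kb) lay above the range of Cxcl16 (5.64 to 6.16). In the SOX2LSL tumours the order was Ccl8 (35.8 ± 25.8 CPM per kb), Cxcl14 (21 ± 8.36), Ccl6 (12.1 ± 10.8), Ccl11 (9.29 ± 2.38) and Ackr3 (8.27 ± 2.58), and neighbours in this order overlapped.

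The values also varied between tumours of 1 genotype. SOX2LSL tumour 1 held the highest value of 23 of the 40 members. Ivl:BRAFV600E tumour 2 held the lowest value of 16 and the highest of 4, and Ivl:BRAFV600E tumour 1 the lowest of 13 (ties at 0 reads counted for the first tumour). The CPM of the 40 members summed to 162, 203 and 215 in the Ivl:BRAFV600E tumours and to 540, 290 and 265 in the SOX2LSL tumours, and these sums weigh long and abundant transcripts most. The 6 pan-leukocyte genes followed the same order of groups, with sums of 44.1, 60.7 and 82.3 CPM against 370, 133 and 148 CPM. All 6 lay apart between the groups (18.2% of all genes tested lay apart upward) and 2 were called (3.9% of all genes), Ptprc, which encodes CD45 (log2 fold change 1.30, edgeR adjusted p = 0.0483), and Coro1a, an actin regulator of leukocytes (1.59, edgeR adjusted p = 0.0436). Skeletal-muscle genes differed far more, with sums of 4.20 to 7.70 CPM and 282 to 1220 CPM. Of the 11 tested, Myh4, Tnnt3, Pvalb and Mb passed the filter only through the SOX2LSL group, and the other 7 were called as higher (background 2.39%). Of the 8 fibroblast genes, 1 was called, Pdpn, as higher (background 3.9%), 3 were higher in every SOX2LSL tumour, 3 had an unadjusted p below 0.05 and DESeq2 called 3 (18.2%, 25.7% and 18.2% over all genes), while Lum had a log2 fold change of -0.12. In the dendritic and Langerhans cell list Epcam, which epithelial cells also express, was called as higher. Epcam and Fscn1 made up most of the sum of the latter list, in which 4 of 9 genes (Epcam, Fscn1, Zbtb46 and Cd209a) were higher in every SOX2LSL tumour, 6 had an unadjusted p below 0.05 and DESeq2 called 2, where the shares over all genes were 18.2%, 25.7% and 18.2%. The 10 keratinocyte genes summed to 102479 to 163500 CPM and 17533 to 65513 CPM, with none called by edgeR (5 at an unadjusted p below 0.05, 4 of them lower, and the same numbers by DESeq2). Most of the difference in the sums lay in Krt1 (means of 40640 and 8630 CPM) and Krt10 (32344 and 3877 CPM), keratins of differentiating layers. Krt16 (23653 and 9262 CPM) and Krt6a (10903 and 5395 CPM) also had lower means. Of the basal-layer genes, Krt14 had a lower mean (22459 and 14324 CPM), whereas Krt5 (2618 and 3195 CPM) and Trp63 (281 and 301 CPM) did not. All 3 basal-layer genes overlapped. The 8 endothelial genes summed to 158 to 177 CPM and 173 to 202 CPM, with none called by edgeR (3 at an unadjusted p below 0.05, 2 by DESeq2). The shares over all genes were 25.7% and 18.2%. The part of these cell types in the members' values was not tested.

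**Figure D5:**
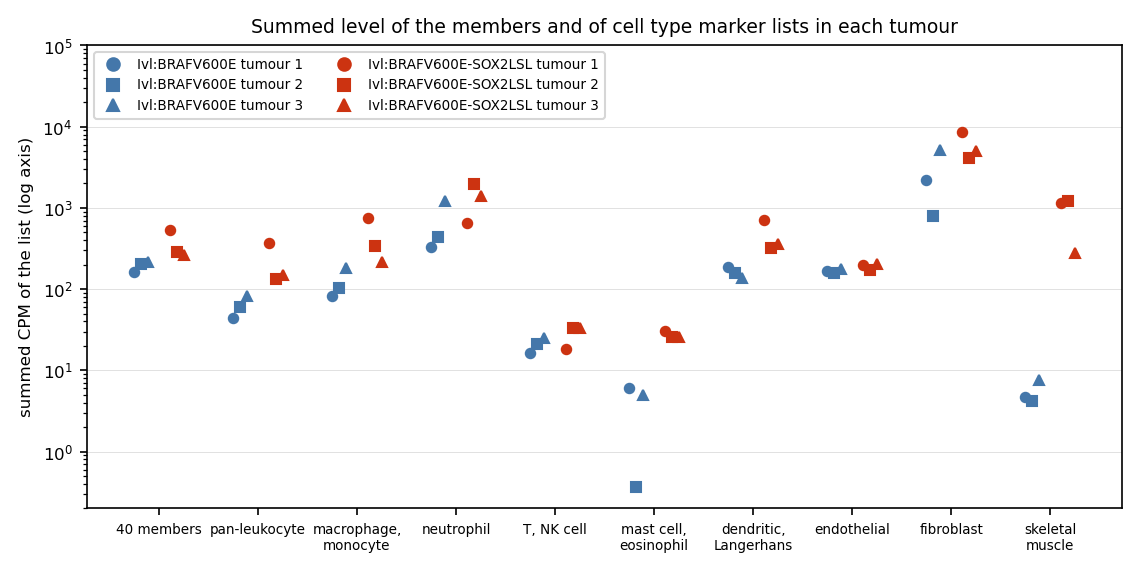
Summed CPM on a log axis of the 40 members and of 9 lists of cell type markers in each tumour, with Ivl:BRAFV600E tumours in blue and SOX2LSL tumours in red. The red symbols lie above the blue ones for the members (265 to 540 against 162 to 215 CPM), the pan-leukocyte, macrophage, mast cell and skeletal-muscle lists and the dendritic list, whose sum is mostly Epcam and Fscn1, and overlap with them for the neutrophil, T cell, endothelial and fibroblast lists.

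Other genes of the pathway were taken from 3 lists. Of 24 further chemokine, receptor and related genes, 22 were tested, with a median log2 fold change of 0.70 (0.68 without Cxcr1). The related genes, Cmtm3 and Cmtm7, encode neither chemokines nor their receptors. Of 22 genes that carry the signal of a chemokine receptor into the cell, 3 were called and all 3 rose, where edgeR called 3.9% of all genes tested and 2.39% as higher, and the median was 0.75. They were Grk5, a kinase that desensitises receptors (9.26 to 9.65 CPM against 16.9 to 18.8 CPM, log2 fold change 0.91, edgeR adjusted p = 0.0267), and the leukocyte signalling genes Rac2 (1.64 to 3.94 CPM against 7.80 to 12.6 CPM, 1.83, adjusted p = 0.0426) and Vav1 (1.6 to 3.09 CPM against 6.12 to 12.3 CPM, 2.04, adjusted p = 0.0324). Of 20 cytokines that induce chemokines, 17 were tested and 1 was called, Il1a, an alarm cytokine stored in keratinocytes, at 16.3, 20.1 and 12.5 CPM in the Ivl:BRAFV600E tumours and 53.3, 66.1 and 52.6 CPM in the SOX2LSL tumours (log2 fold change 1.81, standard error 0.20, edgeR adjusted p = 0.0129). The median of the cytokine list was 1.0, and 0.82 without Il13 and Csf2, which passed the filter only through the SOX2LSL group. No gene of the 3 lists was called lower by edgeR, while 1 gene of each list (Ccr3, Grk2 and Il18) was lower at an unadjusted p below 0.05 and was called lower by DESeq2.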

How the data were processed

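Bulk RNA of skin tumours was sequenced after depletion of ribosomal RNA. The authors aligned the reads to GRCm38 (HISAT2 2.1.0 and Subread 1.6.3, whose featureCounts assigns reads to genes, stand in the submitters' processing notes) and deposited raw read counts per gene, without normalisation. The treatment of multimapping reads and of the strand was not given in the sources used here. A symbol was found for 55154 of its 55423 features. Its columns are named by mouse, 6 could be tied to a genotype (3 for each), and 1 was not used. The labels hold 4 Ivl:BRAFV600E samples, whereas the name of the unused column resembles those of the SOX2LSL mice, so it was given no group. Tumours are numbered here in column order, which is not the replicate number of the labels. Sex and reporter alleles come from the study's mouse list.

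Genes that reached 5 reads in 1 or more tumours were tested with edgeR 4.0.16 in R 4.3.3 (TMM, quasi-likelihood test, Benjamini-Hochberg adjustment over all genes tested, threshold 0.05), with genotype as the only factor. Depth was 23565432 to 31152826 counts. The p-values measure the spread between the tumours of a group. CPM are TMM-scaled, and levels between genes were compared per kb of merged exon (GENCODE M21). Counting intervals are exact 95% intervals.

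The alternatives were DESeq2 1.42.0, limma 3.58.1 (voom), DESeq2's size factors, upper-quartile scaling, leaving out the 10 most counted genes, no filter, filterByExpr, sex as a covariate and each tumour left out. The fits were tested on simulated data. The members and lists were chosen with earlier results of these data known. All 40 members are reported, with values for each tumour for called members, for those whose groups do not overlap with a log2 fold change of at least 1, and for the highest per role. Values for each tumour of other members and genes were added after they had been seen. Some results under these rules are not reported here. Figures were drawn with matplotlib 3.10.9.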

Additional observations from a re-analysis of the deposited data

How the results depend on the processing

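The number of members called higher was 2 in edgeR, 10 with DESeq2, 1 with limma voom, with DESeq2's size factors and with upper-quartile scaling, 5 without the low-count filter, 0 with sex as a covariate and 0 to 1 when a tumour was left out; no setting called a member lower. Ccl11 was called in 8 and Ackr3 in 5 of the 14 settings. The other chemokine genes gave 6 higher and 1 lower with DESeq2 (0 to 1 higher without a tumour), the signalling genes 9 and 1 (0 to 4 higher), and the cytokines 3 and 1 (0 to 2 higher, 0 to 1 lower). Without a tumour, the sign of the log2 fold change turned in 13 members, none of them called, with ranges of -1.13 to 1.19 for Ccl2, -1.83 to 2.20 for Ccl3, -1.39 to 2.92 for Ccl4, -0.57 to 1.98 for Ccl5, -1.38 to 0.27 for Ccl20, -1.01 to 2.67 for Ccl24, -1.06 to 2.89 for Cxcl2, -0.17 to 2.26 for Cxcl3, -0.76 to 2.43 for Cxcl9, -0.02 to 0.53 for Cxcl14, -1.66 to 1.55 for Cxcl17, -0.44 to 0.72 for Cxcr5 and -0.25 to 0.86 for Cx3cr1. With limma voom it turned in Ccl3 (1.29), Ccl4 (1.09), Ccl24 (1.22), Cxcl2 (1.31), Cxcl9 (1.03), Cxcl17 (-0.11) and Cxcr5 (-0.70), with sex as a covariate in Ccl4 (0.61), Cxcl2 (0.77), Cxcl9 (0.06) and Cxcl14 (-0.03), and with upper-quartile scaling in Cxcr5 (-0.04). The cause was not tested. No paired analysis was possible because the columns carry no replicate number and no pairing of mice between the genotypes is stated in the labels. Depth limits statements on members of a few reads, such as Ccl5, Ccl17, Ccl19, Cxcl11, Cxcr5 and Xcl1. Cxcl11 is also annotated as a polymorphic pseudogene, and its exons overlap those of Gm2673 on the other strand by 1582 bases.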
